A study of Mus musculus with 12 samples.

Results

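The 9 genes described here are Tead4, Cdx2, Gata3, Tfap2c, Elf5, Ets2, Hand1, Tfap2a and Krt7, which are used in the mouse as genes of the trophoblast lineage and of the extraembryonic ectoderm. Each was read from the probe set annotated with its symbol alone, and where a gene had several such probe sets, from the one with the highest mean over the 12 arrays. They are 9 of the 22180 genes that could be read in this way. The list was set by symbol, from general knowledge and with earlier results of these data known. Only Gata3 had 2 probe sets to choose from.

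The trophoblast is the first lineage to leave the pluripotent cells of the embryo: the outer cells of the blastocyst become trophectoderm, and after implantation the part of it next to the epiblast becomes extraembryonic ectoderm, from which trophoblast stem cells can be kept in culture. Tead4, with its co-activator Yap, acts upstream of Cdx2 and Gata3, which work in parallel in setting up the trophectoderm. Tfap2c, Elf5 and Ets2 belong to the network that keeps trophoblast stem cells dividing, and Hand1 drives their differentiation into giant cells. Several of the genes also work outside the trophoblast, Cdx2 and Hand1 in mesoderm of the later embryo, Tfap2a in surface ectoderm and neural crest, and Tfap2c in germ cells.

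The arrays fall into 6 groups of 2. The naive state is held by embryonic stem cells (ESC), which were derived at embryonic day (E) 3.5 and grown in N2B27 medium with CHIR99021 at 3 µM, an inhibitor of the kinase GSK3, PD0325901 at 1 µM, an inhibitor of the kinase MEK, and LIF, which the labels give at 10 µg/ml. Epiblast stem cells (EpiSC) were derived at E5.75 and grown in N2B27 with 20% KSR, a serum replacement, 12 ng/ml of the growth factor FGF2 and 20 ng/ml of Activin A. The lines titled rsEpiSC came from either stage, E5.75 or E6.5, and their N2B27 held the Wnt inhibitor IWR1 at 2.5 µM besides 20 ng/ml of a factor whose name is missing from the labels. Other label fields give these lines another name, intrinsic state epiblast stem cells. All cultured lines grew on mouse embryonic fibroblasts. The remaining arrays hold the epiblast itself, dissected at E5.75 or at E6.5: this is the pluripotent layer of the embryo after implantation, and it lies directly against the extraembryonic ectoderm. All 12 arrays are labelled with the fluorescent Oct4 reporter OCT4-deltaPE-GFP, crossed to C57BL/6 in ESC and EpiSC. In the other groups the number after C57BL/ counts up from array to array, so the strain was not used. The labels do not say whether the 2 arrays of a group are separate cultures, litters or embryos, so each p-value reflects just how far these arrays lie apart, and that spread may be technical.

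All values are log2 signals as deposited, and a difference of 1 on this scale is a factor of 2 in signal. The interquartile range of all genes was 3.07 to 3.31 log2 units on the 8 arrays of cultured lines against 2.23 to 2.68 on the 4 tissue arrays, and the median difference of all genes between a cultured group and a tissue group lay between -0.19 and -0.10. Quantile normalization of the arrays moved those medians by up to 0.14. Genes that mark naive pluripotency averaged 8.98 to 9.18 in ESC and at most 4.76 on any other array. The 6 markers of the epiblast averaged 7.63 to 8.12 in tissue, 7.32 to 8.08 in EpiSC and 6.46 to 7.08 in rsEpiSC E6.5. In rsEpiSC E5.75 they averaged 5.45 to 5.76, below the 6.72 to 6.99 of ESC. They did not move together: in rsEpiSC E5.75 minus ESC, 2 rose and 3 fell, against 10.3% of all genes called. Otx2 (9.29 against 5.42) and Pou3f1 (6.54 against 5.14) were higher in rsEpiSC E5.75. Tdgf1 (3.61 against 11.21), Utf1 (5.87 against 8.99) and Pou5f1 (4.36 against 7.03) were lower. The 12 measured markers of visceral endoderm, the other tissue that lies against the epiblast, averaged 4.52 to 4.55 in E5.75 tissue and 4.41 to 4.46 in E6.5 tissue. On the arrays of cultured lines they averaged 4.19 to 4.45. The 13 fibroblast markers averaged 5.21 to 5.59 in EpiSC, 5.10 to 5.23 in rsEpiSC E5.75, and between 4.16 and 4.62 in the other groups. Col1a2, Tagln and Acta2 had the largest part in this, at 7.66, 9.19 and 8.92 in EpiSC and 3.36, 4.82 and 5.79 in ESC. Dcn was highest in tissue (5.30 at E5.75, 3.59 in EpiSC). In EpiSC minus epiblast E5.75, 4 of the 13 rose and 1 fell, against 24.0% of all genes called. In such bulk samples, fewer cells of a type and less RNA per cell cannot be told apart.

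Tead4, Tfap2c, Ets2 and Krt7 differed among the 6 groups, each with its own order of the groups, and Cdx2, Gata3, Hand1, Elf5 and Tfap2a did not pass the same test. The test was the F test of a limma fit to the 6 group means, adjusted over all genes. It called 4 of the 9 genes, against 32.0% of all genes. Between single pairs of groups, 0 to 3 of the 9 genes passed at an adjusted p under 0.05, against 0.0225% to 24.0% of all genes, depending on the pair. The span between the highest and the lowest group mean was 2.75 for Tead4, 2.32 for Tfap2a, 2.00 for Ets2, 1.91 for Krt7 and 1.64 for Tfap2c. It was 1.33 for Elf5, 1.01 for Hand1, 0.67 for Gata3 and 0.52 for Cdx2, and the median over all genes was 0.94.

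**Figure D1:**
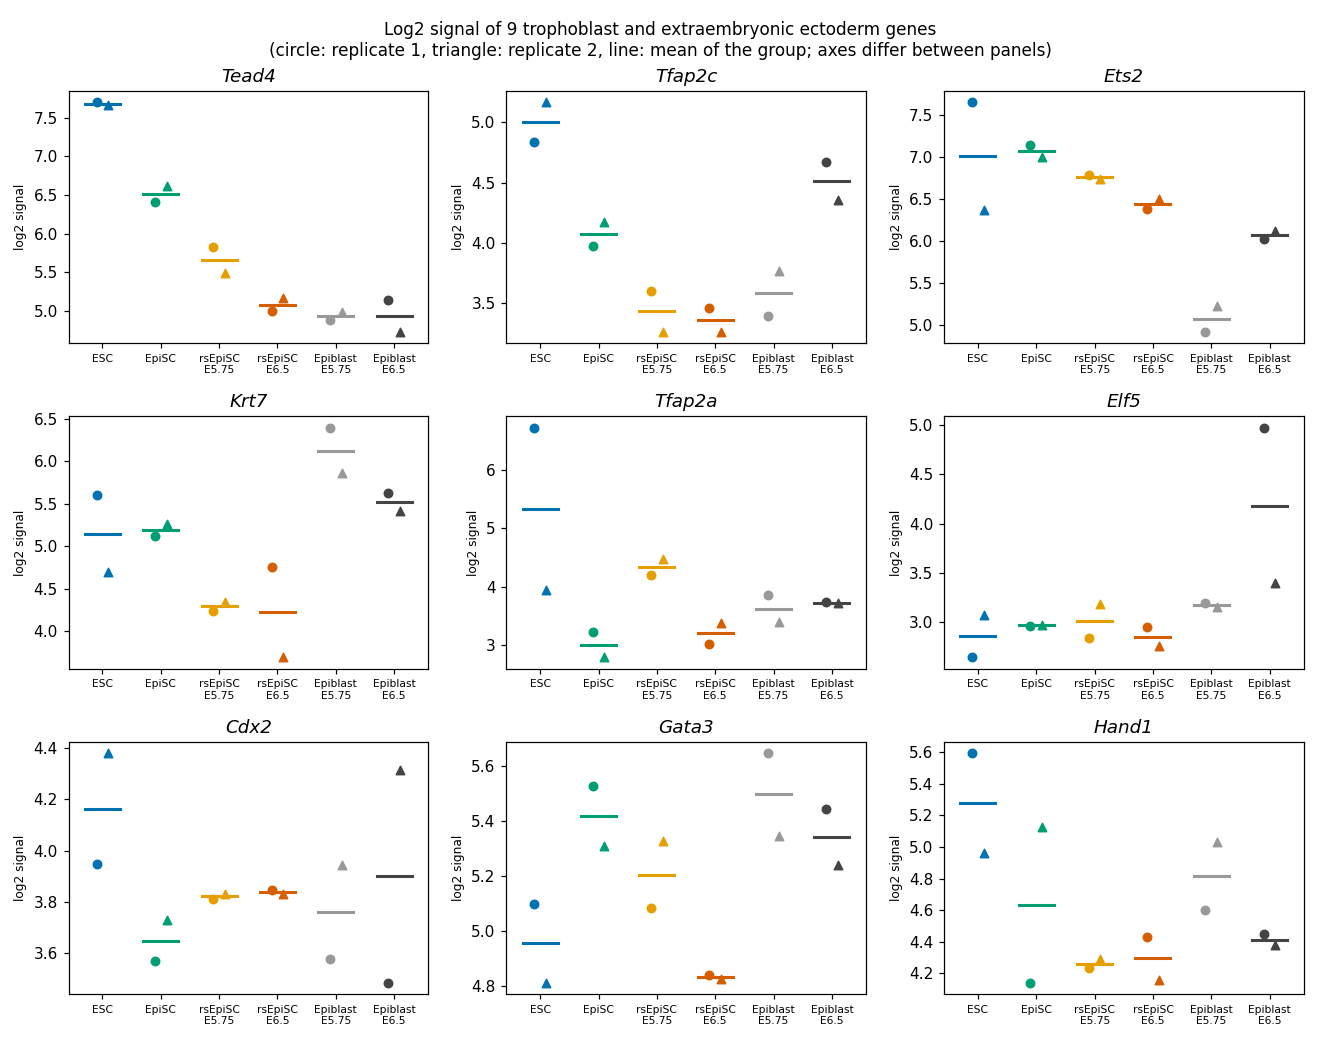
Log2 signal of each of the 9 genes (vertical axis, a scale of its own in each panel) on both arrays of the 6 groups (horizontal axis); the circle is replicate 1, the triangle replicate 2 and the line their mean. Tead4 falls from 7.68 in ESC to 4.93 in epiblast E5.75, Krt7 is highest in the tissue groups, Ets2 is lowest in epiblast E5.75, and single arrays stand apart for Tfap2a in ESC and Elf5 in epiblast E6.5.

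Tead4, the transcription factor at the head of the trophectoderm program, was highest in ESC, intermediate in EpiSC and lowest in tissue. The gene spans chr6:128227143-128300813 (RefSeq, GRCm38.p6). Its signal was 7.69 and 7.66 in ESC, and 6.40 and 6.62 in EpiSC. In the rsEpiSC lines it was 5.82 and 5.50 for E5.75 and 4.996 and 5.17 for E6.5. In tissue it was 4.88 and 4.99 at E5.75 and 5.15 and 4.73 at E6.5. Both ESC arrays lay above every other array, both EpiSC arrays came next, and the rsEpiSC E6.5 arrays overlapped with the tissue. The gene passed in 8 of the 15 pairs of groups, more than any other of the 9 genes, and its F test had an adjusted p of 6.47e-05 (limma).

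ESC exceeded EpiSC in Tead4 signal by 2.24-fold (log2 difference of EpiSC minus ESC -1.17 ± 0.26, limma standard error; adjusted p = 0.0177). They exceeded rsEpiSC E5.75 by 4.05-fold, rsEpiSC E6.5 by 6.05-fold, epiblast E5.75 by 6.71-fold and epiblast E6.5 by 6.67-fold, with adjusted p-values between 3.55e-05 and 0.000315. EpiSC exceeded epiblast E5.75 by 1.58 ± 0.26 (adjusted p = 0.0015) and epiblast E6.5 by 1.57 ± 0.26 (adjusted p = 0.00154). rsEpiSC E6.5 lay below EpiSC by a log2 difference of -1.43 ± 0.26 (adjusted p = 0.00881). The step from EpiSC to rsEpiSC E5.75 was -0.85 ± 0.26 and did not pass (adjusted p = 0.11), and neither rsEpiSC group passed against either tissue.

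For Tead4, the differences of ESC from the 4 groups other than EpiSC held in all 19 alternatives computed, as did those of EpiSC from both tissues. The EpiSC against ESC call held in 14 of 19. It was lost without ESC replicate 1 (-1.15, adjusted p = 0.0607) or 2 (-1.18, 0.0626), without EpiSC replicate 1 (-1.06, 0.124) or 2 (-1.27, 0.0539), and in a fit of those 4 arrays alone (0.132). The rsEpiSC E6.5 against EpiSC call was lost without EpiSC replicate 2 (-1.32, adjusted p = 0.0544) and without rsEpiSC E6.5 replicate 1 (-1.34, 0.104) or 2 (-1.52, 0.0742).

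Cdx2, the homeobox factor that defines the trophectoderm, did not differ between any of the 15 pairs of groups at an adjusted p under 0.05. Its signal was 3.95 and 4.38 in ESC, 3.57 and 3.73 in EpiSC, 3.81 and 3.83 in rsEpiSC E5.75 and 3.85 and 3.83 in rsEpiSC E6.5. In tissue it was 3.58 and 3.94 at E5.75 and 3.48 and 4.31 at E6.5, so the 2 arrays of E6.5 tissue spanned nearly the whole range. On all 12 arrays Cdx2 lay under the median signal of all genes of that array, which describes the probe set and not the amount of RNA. Its F test had an adjusted p of 0.692 (limma). The 95% interval of the largest difference between group means, EpiSC minus ESC at -0.52, ran from -1.15 to 0.12.

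Gata3, a zinc finger factor that works beside Cdx2, also passed in 0 of 15 pairs (F test, limma adjusted p = 0.199). The arrays read 5.10 and 4.81 in ESC, 5.53 and 5.31 in EpiSC, 5.09 and 5.33 in rsEpiSC E5.75 and 4.84 and 4.82 in rsEpiSC E6.5. Tissue read 5.65 and 5.35 at E5.75 and 5.45 and 5.24 at E6.5. EpiSC and both tissues thus lay at the upper end and ESC and rsEpiSC E6.5 at the lower end, by less than the test could call. After quantile normalization 2 pairs passed, rsEpiSC E6.5 against epiblast E5.75 (-0.97, adjusted p = 0.0362) and ESC against epiblast E5.75 (-0.84, adjusted p = 0.0472). The second Gata3 probe set gave another order, with EpiSC highest at 4.83 and 4.74 and E5.75 tissue at 3.88 and 4.23.

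Tfap2c encodes AP-2 gamma, a factor required in trophoblast and also active in naive pluripotent cells and germ cells. The gene spans chr2:172545678-172558622. It was high in ESC and in E6.5 tissue and low in the rsEpiSC lines. The arrays read 4.84 and 5.16 in ESC, 3.98 and 4.18 in EpiSC, 3.60 and 3.27 in rsEpiSC E5.75 and 3.47 and 3.27 in rsEpiSC E6.5. Tissue read 3.40 and 3.77 at E5.75 and 4.67 and 4.36 at E6.5. The E6.5 tissue arrays lay above both E5.75 tissue arrays and above all EpiSC and rsEpiSC arrays, and below those of ESC. Of these steps, the ones from E6.5 tissue to E5.75 tissue (limma adjusted p = 0.188), to EpiSC (0.24) and to ESC (0.195) did not pass. How many of all genes separate in this way was not counted.

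ESC exceeded rsEpiSC E5.75 in Tfap2c signal by 2.96-fold (rsEpiSC E5.75 minus ESC -1.57 ± 0.25, adjusted p = 0.0016, limma). The rsEpiSC E6.5 difference from ESC was -1.64 ± 0.25 (adjusted p = 0.00136), and ESC lay 1.42 ± 0.25 above epiblast E5.75 (adjusted p = 0.00243). These 3 calls held in all 19 alternatives. rsEpiSC E6.5 lay below epiblast E6.5 by 2.21-fold (-1.15 ± 0.25, adjusted p = 0.0136), and rsEpiSC E5.75 below it by 2.11-fold (-1.08 ± 0.25, adjusted p = 0.0129). The first was lost without rsEpiSC E6.5 replicate 1 (-1.25, 0.0659) or 2 (-1.05, 0.124) or epiblast E6.5 replicate 1 (-0.99, 0.0707). The second was lost without rsEpiSC E5.75 replicate 2 (-0.91, 0.116) or epiblast E6.5 replicate 1 (-0.92, 0.0717). EpiSC minus ESC was -0.93 ± 0.25 with an adjusted p of 0.0497, and this call held in only 4 of 19 alternatives: it was lost on leaving out any 1 array other than those of epiblast E5.75, with adjusted p-values up to 0.265 (-0.76 without ESC replicate 2).

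Elf5, an ETS-family factor that sustains trophoblast stem cells and is silenced by DNA methylation in the embryo proper, stood out on a single array. The signal was 2.65 and 3.07 in ESC, 2.96 and 2.97 in EpiSC, 2.84 and 3.18 in rsEpiSC E5.75 and 2.95 and 2.76 in rsEpiSC E6.5. Tissue of E5.75 gave 3.19 and 3.15, and tissue of E6.5 gave 4.97 and 3.39. Only the 4.97 of epiblast E6.5 replicate 1 lay above the median of all genes on its array. The 1.57 between the 2 arrays of E6.5 tissue was exceeded by 1.06% of all genes in that group.

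3 of the 15 pairs passed for Elf5, all against epiblast E6.5. They were rsEpiSC E6.5 (-1.33 ± 0.40, adjusted p = 0.0479, limma), EpiSC (-1.22 ± 0.40, adjusted p = 0.0484) and ESC (-1.32 ± 0.40, adjusted p = 0.0355). Without epiblast E6.5 replicate 1 the differences were -0.54 (adjusted p = 0.257), -0.43 (0.333) and -0.54 (0.227), and without replicate 2 they were -2.12 (0.00324) for rsEpiSC E6.5 and -2.11 (0.00143) for ESC. Quantile normalization also ended the 3 calls (adjusted p-values 0.127, 0.139 and 0.0959), and those of rsEpiSC E6.5 and EpiSC were also lost without any 1 of the 10 arrays of the other groups, while that of ESC was also lost without either array of ESC or of rsEpiSC E6.5. The F test over all groups did not pass (adjusted p = 0.0996).

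Elf5 and Tfap2c are also markers of extraembryonic ectoderm, whose tissue borders the dissected epiblast. The 10 markers of that tissue, 5 of them among the 9 genes, averaged 5.04 to 5.24 on the E6.5 tissue arrays, 4.83 and 4.85 at E5.75, 4.34 to 4.43 in the rsEpiSC groups, 4.61 to 4.67 in EpiSC and 4.69 to 5.22 in ESC. Between rsEpiSC E6.5 and epiblast E6.5, 4 of the 10 fell and 0 rose, against 12.5% of all genes called, with a median of -0.33 beside -0.10 for all genes. They were Eomes and, already counted among the 9 genes, Elf5, Tfap2c and Krt7. Eomes, a T-box factor of the extraembryonic ectoderm that the primitive streak also uses, gave 7.14 and 7.35 in E5.75 tissue and 8.88 and 8.97 in E6.5 tissue. Its group means were 5.25 in ESC and 5.35 in EpiSC, so it weighs on the averages of the 10 markers in tissue. The median difference of the 10 was 0.24 in ESC minus epiblast E6.5 (all genes -0.14). In EpiSC minus epiblast E5.75 that median was -0.15 (all genes -0.19). Rhox6, Esx1 and Cdx2 did not pass in rsEpiSC E6.5 minus epiblast E6.5: in E6.5 tissue Rhox6 gave 5.43 and 4.93, Esx1 4.03 and 3.25, and Cdx2 3.48 and 4.31. On replicate 1 of that tissue, where Elf5 was highest, Rhox6 and Esx1 were thus higher and Cdx2 lower than on replicate 2. Of the 10 markers 6 were higher on replicate 1, and of the 9 genes 7, against 50.2% of all genes. Of 20 other genes of extraembryonic ectoderm and trophoblast stem cells, 11 were higher there. The part of adjoining extraembryonic cells in these values was not tested.

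Ets2, an ETS-family factor needed in trophoblast and its stem cells, was lower in E5.75 tissue than in every cultured group. It lies at chr16:95702407-95721049. Its arrays read 7.65 and 6.36 in ESC, 7.14 and 7.00 in EpiSC, 6.78 and 6.73 in rsEpiSC E5.75 and 6.38 and 6.50 in rsEpiSC E6.5. Tissue gave 4.92 and 5.23 at E5.75 and 6.02 and 6.12 at E6.5. Both E5.75 tissue arrays lay below the other 10, and the E6.5 tissue arrays came next.

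EpiSC exceeded epiblast E5.75 in Ets2 signal by 3.99-fold (2.00 ± 0.36, adjusted p = 0.00243, limma), ESC by 3.82-fold (1.93 ± 0.36, 0.00308), rsEpiSC E5.75 by 3.21-fold (1.68 ± 0.36, 0.00728) and rsEpiSC E6.5 by 2.58-fold (1.37 ± 0.36, 0.0246). These were the only pairs of the 15 that passed. The EpiSC call held in all 19 alternatives. The ESC call held in 18, and its size was 1.29 without ESC replicate 1 and 2.58 without replicate 2. The rsEpiSC E5.75 call was lost without rsEpiSC E5.75 replicate 1 (1.66, adjusted p = 0.0554). The rsEpiSC E6.5 call was lost after quantile normalization (1.17, 0.0556), without rsEpiSC E6.5 replicate 1 (1.43, 0.108) or 2 (1.30, 0.145) and without epiblast E5.75 replicate 1 (1.21, 0.108). Against epiblast E6.5 no cultured group passed, although EpiSC minus epiblast E6.5, at 1.00, passed in a fit of those 4 arrays alone (0.0472) and without either ESC array. ESC minus epiblast E6.5 was 0.94 (adjusted p = 0.0864, limma) with the ESC arrays at 7.65 and 6.36, and it was 1.58 without ESC replicate 2.

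Hand1, a basic helix-loop-helix factor of giant cells and extraembryonic mesoderm, passed in 0 of 15 pairs (F test, limma adjusted p = 0.151). It read 5.59 and 4.96 in ESC, 4.14 and 5.13 in EpiSC, 4.23 and 4.29 in rsEpiSC E5.75 and 4.43 and 4.16 in rsEpiSC E6.5, and in tissue 4.60 and 5.03 at E5.75 and 4.45 and 4.38 at E6.5. The EpiSC arrays overlapped with every other group. Among the alternatives, a call arose only without one of them: rsEpiSC E5.75 minus ESC, at -1.01, passed without replicate 1 or 2 (adjusted p = 0.0455 and 0.0448).

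Tfap2a, the AP-2 alpha gene of trophoblast, surface ectoderm and neural crest, had the widest spread of the 9 genes across single arrays, from 2.80 to 6.72. It read 6.72 and 3.94 in ESC, 3.22 and 2.80 in EpiSC, 4.20 and 4.47 in rsEpiSC E5.75 and 3.02 and 3.39 in rsEpiSC E6.5. Tissue read 3.86 and 3.39 at E5.75 and 3.74 and 3.72 at E6.5. The gap of 2.78 between the 2 ESC arrays was exceeded by 0.225% of all genes. EpiSC lay below ESC (-2.32 ± 0.62, adjusted p = 0.047, limma), the only pair of 15 that passed. Without ESC replicate 1 the difference was -0.93 (0.143) and without ESC replicate 2 it was -3.71 (7.66e-05). The call was also lost after quantile normalization (-2.13, 0.0623), in a fit of those 4 arrays alone (0.254), and without any 1 of the other 10 arrays. The rsEpiSC E6.5 minus ESC difference was -2.13 ± 0.62 and did not pass (adjusted p = 0.0547, limma). It passed after centring of the arrays (0.0482), with the filter on dim genes (0.0443) and with array weights (0.0167). ESC minus epiblast E5.75 passed after quantile normalization (1.92, 0.0448).

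The 2 ESC arrays differed in other trophoblast genes as well. Of the 9 genes, Tfap2a and Ets2 lay at least 1 log2 unit apart between them, against 7.78% of all genes, both higher in replicate 1, while Tead4 differed by 0.03. Of 20 further genes of extraembryonic ectoderm and trophoblast stem cells, 5 were at least 1 unit higher in replicate 1 and 0 in replicate 2: Rhox6 (7.59 and 5.07), Bmp4 (7.43 and 5.74), Pcsk6 (7.31 and 5.92), Zfp42 (10.47 and 9.39) and Nrk. Gata2, the paralog of Gata3 in trophoblast, went the other way at 5.22 and 7.73. The part of these differences in the ESC results was not tested beyond leaving out each array.

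Krt7, a type II keratin of simple epithelia that is used as a marker of trophoblast, was highest in tissue and lowest in the rsEpiSC lines. It lies at chr15:101412403-101427806. Its arrays read 5.60 and 4.69 in ESC, 5.12 and 5.27 in EpiSC, 4.24 and 4.35 in rsEpiSC E5.75 and 4.76 and 3.69 in rsEpiSC E6.5. Tissue read 6.40 and 5.86 at E5.75 and 5.63 and 5.42 at E6.5. All 4 rsEpiSC arrays lay below all 4 tissue arrays, with EpiSC between them. The order of these groups was the same after quantile normalization, where rsEpiSC E5.75 minus epiblast E5.75 was -2.13 against -1.83 without it.

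Tissue of E5.75 exceeded rsEpiSC E5.75 in Krt7 signal by 3.57-fold (-1.83 ± 0.38, adjusted p = 0.00646, limma) and rsEpiSC E6.5 by 3.75-fold (-1.91 ± 0.38, 0.00724). Tissue of E6.5 exceeded rsEpiSC E6.5 by 2.46-fold (-1.30 ± 0.38, 0.0444) and rsEpiSC E5.75 by 2.35-fold (-1.23 ± 0.38, 0.0442). These were the 4 pairs of 15 that passed. The first was lost without rsEpiSC E5.75 replicate 1 (-1.78, 0.0525), and the second without rsEpiSC E6.5 replicate 2 (-1.37, 0.0926) or epiblast E5.75 replicate 1 (-1.64, 0.0501). The 2 against E6.5 tissue held in 11 and 12 of 19 alternatives. Of these, rsEpiSC E6.5 minus epiblast E6.5 was -0.77 (0.352) without rsEpiSC E6.5 replicate 2, and it was also lost without either array of epiblast E6.5 (-1.20 and -1.40), of EpiSC or of rsEpiSC E5.75. rsEpiSC E5.75 minus epiblast E6.5 was lost without either array of EpiSC, of rsEpiSC E5.75 (-1.18 and -1.28) or of epiblast E6.5 (-1.13 and -1.33). After quantile normalization EpiSC and ESC also passed against epiblast E5.75 (-1.35, adjusted p = 0.0274, and -1.34, adjusted p = 0.0307).

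Promoter windows of 250 bases before the RefSeq start (GRCm38.p6) were at hand for 6 of the 9 genes, among them Krt7 and Ets2, the 2 of the 4 genes passing the F test for which one could be read. They are shown because Krt7 was lower and Ets2 higher in both rsEpiSC groups than in E5.75 tissue. Against E6.5 tissue, Ets2 passed in neither rsEpiSC group. A further reason is that 2 of the 9 genes encode AP-2 factors, whose motif GCCNNNGGC was searched. The Krt7 window is chr15:101412153-101412402 on the plus strand and the Ets2 window chr16:95702157-95702406 on the plus strand, both written 5′ to 3′ and ending 1 base before the start of the gene, with matches to the motif in capitals.
Krt7: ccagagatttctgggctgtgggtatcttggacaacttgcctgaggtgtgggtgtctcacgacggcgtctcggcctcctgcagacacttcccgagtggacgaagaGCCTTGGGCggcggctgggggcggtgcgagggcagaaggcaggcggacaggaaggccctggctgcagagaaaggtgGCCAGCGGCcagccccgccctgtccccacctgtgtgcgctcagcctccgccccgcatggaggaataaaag
Ets2: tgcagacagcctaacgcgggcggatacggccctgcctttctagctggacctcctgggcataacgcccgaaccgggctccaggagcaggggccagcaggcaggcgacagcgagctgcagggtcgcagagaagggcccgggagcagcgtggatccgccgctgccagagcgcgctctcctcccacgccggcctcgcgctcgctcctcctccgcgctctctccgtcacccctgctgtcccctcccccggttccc
The motif, which reads the same on both strands, was found 2 times in the Krt7 window and 0 times in that of Ets2. It was also found in the windows of Gata3 (3 times) and Cdx2 (1 time), and in none of those of Elf5 and Tfap2a, so 3 of the 8 windows of the 6 genes had it (Elf5 and Tfap2a have 2 windows each), against 13.7% of the 32841 windows of the same length. On both strands, the TEAD motif GGAATG was found in 1 of the 8 windows (12.6% of all windows), the CDX motif TTTATG in 2 (10.8%), the ETS motif CGGAAG in 0 (13.6% of all windows) and the GATA motif AGATAA in 0 (10.0%). A match is a description of the letters in the window and not a bound site.

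Lines of the post-implantation epiblast were set against ESC to ask which of the genes separate them from the naive state. In EpiSC minus ESC, Tfap2c, Tfap2a and Tead4 fell and 0 of the 9 genes rose, against 6.29% of all genes called in either direction. The median difference of the 9 genes was -0.52, and that of all genes was 0.0049. Set against ESC, both rsEpiSC groups had lower Tfap2c and lower Tead4, and 0 of the 9 genes rose; 10.3% (E5.75) and 8.96% (E6.5) of all genes were called. These comparisons share the ESC arrays, so their common members are not independent of each other.

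**Figure D2:**
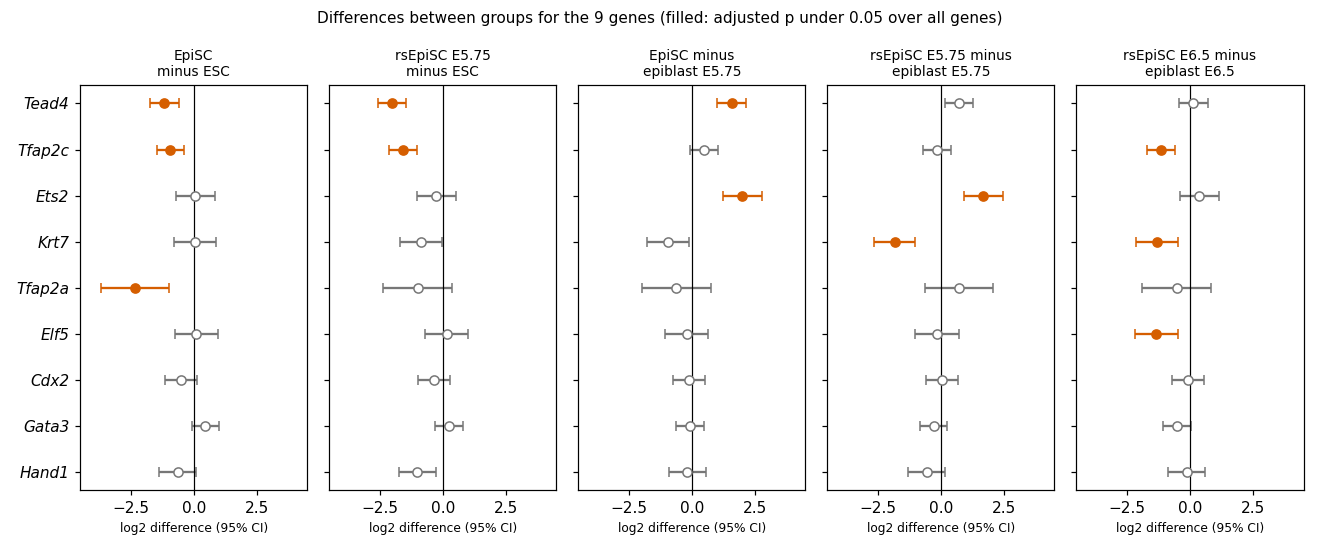
Log2 difference between 2 groups (horizontal axis) with its 95% interval from limma for each of the 9 genes (vertical axis) in 5 comparisons; filled points had an adjusted p under 0.05 over all genes, open points did not. Tead4 lies at -1.17 and -2.02 against ESC and at 1.58 for EpiSC against epiblast E5.75, Ets2 at 1.68 and 2.00 against epiblast E5.75, and Krt7 at -1.83 and -1.30 in rsEpiSC against tissue of the same stage.

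The rsEpiSC lines were then set against EpiSC, which were derived at E5.75 and grown in the other medium. In rsEpiSC E5.75 minus EpiSC, 0 of the 9 genes passed in limma, against 3.87% of all genes, and 3 had an unadjusted p under 0.05: Tead4 (-0.85), Tfap2c (-0.64) and Krt7 (-0.90). Tfap2a, at 1.33 higher in rsEpiSC E5.75, passed when the 4 arrays were fitted alone (adjusted p = 0.0239) and without either ESC array (0.0167 and 0.0169), and had an adjusted p of 0.383 otherwise. Tead4 passed with array weights (adjusted p = 0.0393). In rsEpiSC E6.5 minus EpiSC, where both stage and medium differ, only Tead4 passed, lower in rsEpiSC, against 3.89% of all genes.

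Cultured lines were also set against the tissue they model. In rsEpiSC E5.75 minus epiblast E5.75, Krt7 fell and Ets2 rose, against 21.5% of all genes called, and the same genes made the 2 calls in rsEpiSC E6.5 minus epiblast E5.75 (16.1%). In rsEpiSC E6.5 minus epiblast E6.5, Elf5, Tfap2c and Krt7 fell and 0 rose (12.5%), and in rsEpiSC E5.75 minus epiblast E6.5, Tfap2c and Krt7 fell (17.3%). EpiSC minus epiblast E5.75 had Tead4 and Ets2 higher and 0 lower (24.0%), and EpiSC minus epiblast E6.5 had Tead4 higher and Elf5 lower (20.7%). ESC minus epiblast E5.75 had Tfap2c, Tead4 and Ets2 higher (21.5%), and ESC minus epiblast E6.5 had Tead4 higher and Elf5 lower (19.5%). In these comparisons 2 or 3 of the 9 genes passed, and 2 of 9 is a share near the background.

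Stage made no called difference for any of the 9 genes, in either the lines or the tissue. In rsEpiSC E6.5 minus E5.75, 0 of the 9 genes passed in limma, against 0.0857% of all genes, and Tead4 alone had an unadjusted p under 0.05, at -0.58 ± 0.26. In epiblast E6.5 minus E5.75, 0 passed, against 0.0225%, and 3 had an unadjusted p under 0.05. These were Elf5 at 1.01 ± 0.40 (adjusted p = 0.33), Tfap2c at 0.93 ± 0.25 (0.188) and Ets2 at 1.00 ± 0.36 (0.294). The 95% interval for Tfap2c ran from 0.38 to 1.48.

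**Figure D3:**
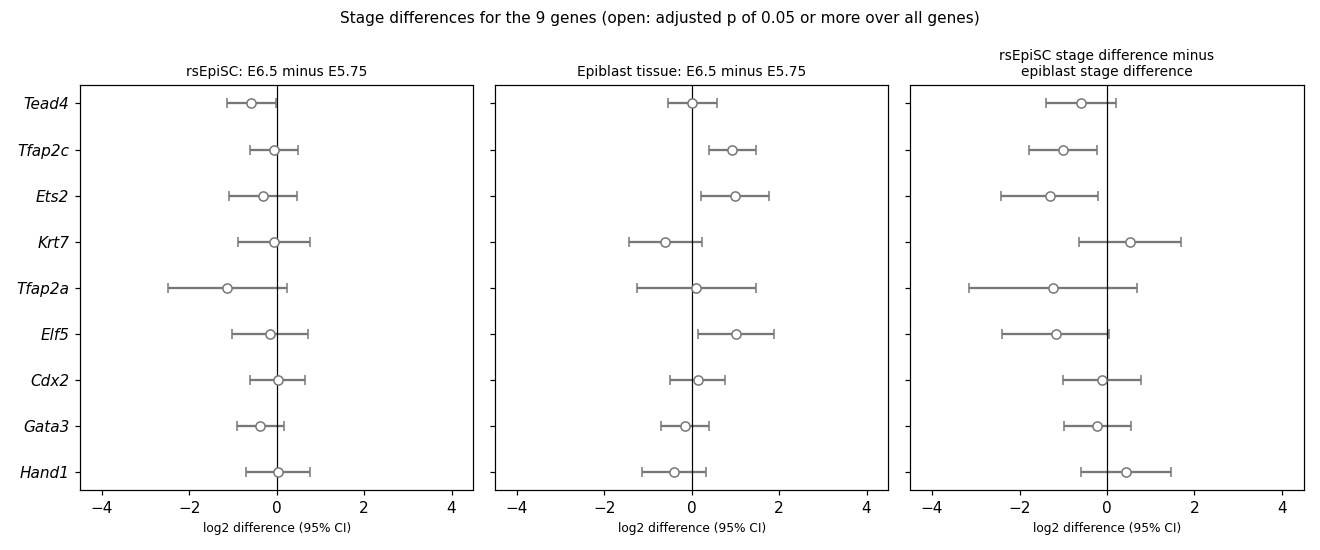
Log2 difference of E6.5 minus E5.75 (horizontal axis) with its 95% interval from limma for the 9 genes (vertical axis), in rsEpiSC lines, in epiblast tissue, and the first minus the second; all points are open because none had an adjusted p under 0.05. Tfap2c, Ets2 and Elf5 lie at 0.93 to 1.01 in tissue and at -0.07 to -0.32 in the lines.

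The difference between the 2 stage differences was tested as an interaction term. It called 0 of the 9 genes in limma, against 0.00902% of all genes, and Tfap2c (-0.999 ± 0.36, adjusted p = 0.483) and Ets2 (-1.31 ± 0.50, adjusted p = 0.51) had an unadjusted p under 0.05. For Tead4 it was -0.59 ± 0.37 and for Cdx2 -0.12 ± 0.41.

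Ordering the 6 groups by their mean signal, ESC came first for Tead4, Tfap2c, Tfap2a, Hand1 and Cdx2, tissue of E5.75 for Krt7 and Gata3, tissue of E6.5 for Elf5 and EpiSC for Ets2. An rsEpiSC group came last for Tfap2c, Krt7, Gata3, Hand1 and Elf5. Of the 45 pairs of neighbours in these orders, 1 passed the limma test (ESC over EpiSC for Tead4). The order of neighbours was thus not resolved by 2 arrays per group except for that pair.

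The 9 genes did not move as one across the 12 arrays, which share the 6 groups. Of the 36 Pearson correlations between them, 22 were positive, the median was 0.22 and 0 were above 0.8. The highest was 0.69, between Gata3 and Krt7, followed by 0.67 for Tead4 and Ets2 and 0.65 for Tfap2c and Tead4, and the lowest was -0.58 for Cdx2 and Gata3. Among 18700 named genes, the 2 closest to Tead4 were Dgkh, a diacylglycerol kinase gene (0.97), and Arap1 (0.97). The closest to Tfap2c were Helz (0.94) and Dst (0.92), to Krt7 Armh1 (0.92) and the zinc finger gene Zfp809 (0.91), and to Ets2 the glycosyltransferase genes Galnt2 (0.95) and Ext2 (0.95).

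Other genes of extraembryonic ectoderm and trophoblast stem cells, 20 in number and all measured, were followed in the same comparisons. In EpiSC minus ESC, 2 rose and 3 fell, against 6.29% of all genes called, with a median of 0.03 beside 0.0049 for all genes. Zfp42, which is also a naive pluripotency gene, fell by 6.31 ± 0.42 (adjusted p = 4.69e-06, limma) and Plet1, a surface protein of trophoblast progenitors, fell by 2.63 ± 0.40 (adjusted p = 0.00171). Fgfr2, the receptor through which FGF4 maintains trophoblast stem cells, rose by 2.69 ± 0.32 (adjusted p = 0.000272), and Rhox6 did not pass (-1.13, adjusted p = 0.386).

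Between rsEpiSC E5.75 and EpiSC, 1 of these 20 genes rose and 4 fell, against 3.87% of all genes called (median -0.03, all genes 0.02). Cdh3, which encodes P-cadherin, fell by 3.71 ± 0.35 (adjusted p = 0.000152, limma), and Sct, which encodes secretin, fell by 1.98 ± 0.32 (adjusted p = 0.00452). Cdh3 read 8.25 and 8.02 in EpiSC and 5.92 or less on every other array, so EpiSC stood apart. Plet1 also fell by 1.98 ± 0.40 (adjusted p = 0.016), while Sox21 did not pass (1.39, adjusted p = 0.0541).

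Against tissue of E5.75, 5 of the 20 rose and 2 fell in rsEpiSC E5.75, beside 21.5% of all genes called (median -0.26, all genes -0.16). Against tissue of E6.5, 2 rose and 2 fell in rsEpiSC E6.5, beside 12.5% (median 0.06, all genes -0.10). Fgfr2 rose by 3.92 ± 0.32 (adjusted p = 3.16e-05, limma) in the first and by 2.94 ± 0.32 (adjusted p = 0.000292) in the second. Its arrays read 7.37 to 7.81 in the 2 rsEpiSC groups and 3.32 to 4.63 in tissue, with no overlap. Eomes went the other way by -2.96 ± 0.26 (adjusted p = 4.99e-05) and -3.77 ± 0.26 (adjusted p = 2.26e-05). Bmp4, the signal that the extraembryonic ectoderm sends to the epiblast, rose by 2.15 ± 0.58 (adjusted p = 0.0228) against E5.75 tissue. None of the 20 passed between stages in lines or in tissue, against 0.0857% and 0.0225% of all genes. In tissue Eomes had the largest difference, 1.68 ± 0.26 higher at E6.5 (adjusted p = 0.0748, limma).

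**Figure D4:**
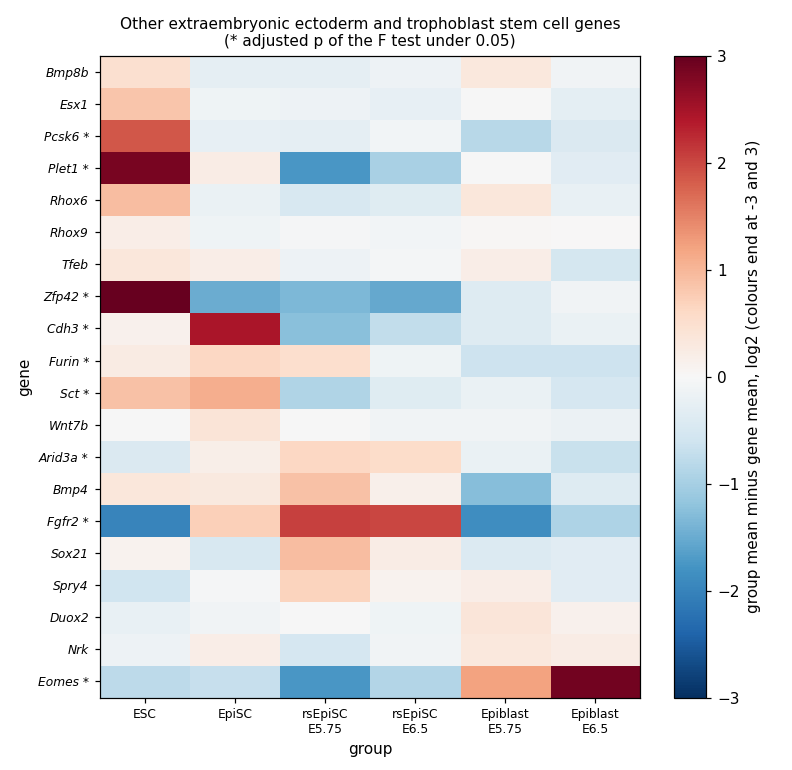
Group mean minus the mean over the 6 groups (colour, log2 units, ending at -3 and 3) of 20 further genes of extraembryonic ectoderm and trophoblast stem cells (rows) in the 6 groups (columns); a star marks an adjusted p under 0.05 in the limma F test. Zfp42 and Plet1 are highest in ESC, Cdh3 in EpiSC, Fgfr2 in both rsEpiSC groups and Eomes in epiblast E6.5.

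Genes of differentiated trophoblast were at hand for 15 of 19 listed symbols. In EpiSC minus ESC, 2 rose and 0 fell, against 6.29% of all genes called. Phlda2 rose by 1.49 ± 0.40 (adjusted p = 0.0468, limma) and Adm by 1.49 ± 0.30 (adjusted p = 0.0112). Both were lower again in rsEpiSC E5.75 than in EpiSC, where Phlda2 fell by 2.07 ± 0.40 (adjusted p = 0.0127) and Adm fell by 1.23 ± 0.30 (adjusted p = 0.0452). Phlda2, an imprinted gene that restrains placental growth, and Peg10, an imprinted gene needed for the placenta, were the largest changes between EpiSC and epiblast E5.75, at 3.68 ± 0.40 (adjusted p = 0.000127) and 4.08 ± 0.64 (adjusted p = 0.00112). In that comparison 2 of the 15 rose and 3 fell, against 24.0% of all genes called (median -0.35, all genes -0.19). Ctsj, a placental protease gene, fell there by 1.13 ± 0.27 (adjusted p = 0.0116).

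The Hippo pathway keeps Yap, the partner of Tead factors, out of the nucleus, and 18 genes of it were measured. In EpiSC minus ESC, where Tead4 fell, 5 of the 18 rose and 0 fell, against 6.29% of all genes called (median 0.40, all genes 0.0049). Ccn1, a target of Yap and Tead that is also high in fibroblasts, rose by 3.53 ± 0.41 (adjusted p = 0.000244, limma), Sav1, a scaffold of the Hippo kinases, by 1.68 ± 0.35 (adjusted p = 0.0128) and Tead2 by 1.58 ± 0.35 (adjusted p = 0.0171). Ccn1 read 10.46 and 9.74 in EpiSC, 8.01 and 8.34 in rsEpiSC E5.75 and 7.25 or less elsewhere. The average of the fibroblast markers, with Col1a2, Tagln and Acta2 having the largest part in it, was highest in the same 2 groups. The part of feeder cells in this was not tested. From EpiSC to rsEpiSC E5.75, 0 rose and 2 fell, against 3.87% of all genes called. Ccn2 fell by 2.37 ± 0.47 (adjusted p = 0.0141) and Ccn1 fell by 1.93 ± 0.41 (adjusted p = 0.0194).

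Against epiblast E5.75, 10 of these 18 genes rose and 2 fell in EpiSC, beside 24.0% of all genes called (median 1.09, all genes -0.19). For rsEpiSC E5.75, 6 rose and 3 fell, beside 21.5% (median 0.80, all genes -0.16). The largest in EpiSC were Ccn1 (4.62 ± 0.41, adjusted p = 3.72e-05, limma), Ccn2 (3.37 ± 0.47, adjusted p = 0.000552) and Wwtr1, the paralog of Yap (1.97 ± 0.35, adjusted p = 0.00233). In rsEpiSC E5.75 they were Ccn1 (2.69 ± 0.41, adjusted p = 0.00115), the Tead cofactor Vgll4 (2.47 ± 0.33, adjusted p = 0.000593) and Tead2 (1.87 ± 0.35, adjusted p = 0.00375). In rsEpiSC E6.5 against epiblast E6.5, 2 rose and 2 fell, beside 12.5% of all genes called.

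Of 20 measured paralogs of the 9 genes, 4 rose and 3 fell in EpiSC minus ESC, against 6.29% of all genes called. Gata2 fell by 2.46 ± 0.59 (adjusted p = 0.0275, limma), Elf3 fell by 2.25 ± 0.55 (adjusted p = 0.0288), and Krt19 rose by 2.19 ± 0.37 (adjusted p = 0.00323), whereas Gata3, Elf5 and Krt7 did not pass. From EpiSC to rsEpiSC E5.75, 0 rose and 3 fell, against 3.87% of all genes called, and all 3 were keratins of simple epithelia. Krt18 fell by 3.20 ± 0.28 (adjusted p = 0.000123), Krt19 fell by 3.11 ± 0.37 (adjusted p = 0.000606) and Krt8 fell by 2.73 ± 0.52 (adjusted p = 0.0114). Krt18 read 11.13 and 11.28 in EpiSC, 9.54 and 8.75 in ESC and 7.92 to 8.42 elsewhere, so the rsEpiSC and tissue arrays overlapped for Krt18, as they did not for Krt7. Tead2 read 8.21 and 7.97 in EpiSC, 8.48 to 8.72 in the rsEpiSC lines, 5.96 and 7.04 in ESC and 6.39 to 7.09 in tissue, so ESC, where Tead4 was highest, and tissue had its lowest values.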

How the data were processed

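The table deposited by the authors has 12 arrays and 41345 probe sets with a log2 signal each. The submitters' processing notes name oligo and RMA, and no source used here gives their versions or settings. The labels' protocol names a human array, but the identifiers matched a mouse probe set table, in which 23521 probe sets carried 1 symbol, 1814 several and 16010 none. For the 1082 genes with more than 1 such probe set the brightest on average was kept, leaving 22180 genes, with no filter and no further normalization. limma 3.58.1 in R 4.3.3 fitted 6 group means (eBayes with a trend; 6 residual and 5.99 prior degrees of freedom). Contrasts of all 15 pairs of groups, the stage interaction and an F test were each adjusted by Benjamini-Hochberg over all genes, with a threshold of 0.05. Precision is limited by having 2 arrays per group.

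The 9 genes, and the lists of other extraembryonic ectoderm genes, differentiated trophoblast, Hippo pathway and paralog genes, were written from general knowledge with earlier results of these data known. Further lists (surface ectoderm, extraembryonic mesoderm, germ cell) stand in the closing section. Named from each list are up to 3 genes that passed with the largest change and up to 2 that did not, and beside each of the 4 genes that passed the F test its 2 best correlated genes; Rhox6, Esx1, Bmp4, Pcsk6, Zfp42, Nrk and Gata2 in the ESC and tissue arrays were named after their values were seen. RefSeq promoter windows (GRCm38.p6) were searched for 5 motifs. Alternatives were the replicate number as a block, quantile normalization, centring, a filter on dim genes, fits of the compared arrays alone, means of probe sets, array weights, and leaving out each array. Replicate numbers did not pair the arrays: deviations from group means correlated between -0.26 and 0.06, with 0 of 15 pairs of groups above 0.1.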

Additional observations from a re-analysis of the deposited data

Results flagged for a closer look

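The stage differences of Ets2 had opposite signs in lines and in tissue, and neither passed: -0.32 in rsEpiSC (adjusted p = 1, limma) and 1.00 in epiblast (adjusted p = 0.294). Both rsEpiSC E6.5 arrays (6.38 and 6.50) lay below both rsEpiSC E5.75 arrays (6.78 and 6.73), whereas both epiblast E6.5 arrays (6.02 and 6.12) lay above both epiblast E5.75 arrays (4.92 and 5.23). The difference between the stage differences was -1.31 ± 0.50 and did not pass over all genes (adjusted p = 0.51, limma). Among the genes described here, Ets2 alone separated by stage without overlap in opposite directions, and it was picked for this after the values were seen. How many of all genes do so was not counted. With 2 arrays per group the pattern can arise by chance, so no conclusion was drawn from it.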

How the results depend on the processing

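The F test calls of Tead4, Tfap2c, Krt7 and Ets2 held in all 18 alternatives that gave them, and no called difference of the 9 genes changed sign. Of 3 genes called in EpiSC minus ESC, 1 was left after quantile normalization (Tead4) and 0 in a fit of those arrays alone. In rsEpiSC E5.75 minus EpiSC, 0 became 1 in a fit of those arrays alone (Tfap2a) and 1 with array weights (Tead4), and in rsEpiSC E6.5 minus epiblast E6.5, 3 became 1 in a fit of those arrays alone (Tfap2c). Leaving out 1 array gave 0 to 2 genes in EpiSC minus ESC, 0 to 1 in rsEpiSC E5.75 minus EpiSC, 2 to 3 in rsEpiSC E5.75 minus ESC, 0 to 2 in each rsEpiSC group minus epiblast of its stage, 2 in EpiSC minus epiblast E5.75, 0 in both stage comparisons and their interaction, 4 to 5 in the F test and 16 to 29 over the 15 pairs (26 with all arrays). With the replicate number as a block, 23 passed over the 15 pairs and 2 in EpiSC minus ESC, Tfap2c (adjusted p = 0.0692) being lost; the calls of Elf5 in rsEpiSC E6.5 (0.0583) and EpiSC (0.0577) minus epiblast E6.5 were lost too, but the numbers did not pair the arrays. Over all genes, counts ranged from 558 to 1614 in EpiSC minus ESC (1396 as reported), 318 to 1567 in rsEpiSC E5.75 minus EpiSC (858), 1027 to 2762 in rsEpiSC E5.75 minus ESC (2282), 3 to 257 between rsEpiSC stages (19), 0 to 155 between tissue stages (5), 1627 to 5504 in rsEpiSC E5.75 minus epiblast E5.75 (4768), 553 to 3863 in rsEpiSC E6.5 minus epiblast E6.5 (2772), 2316 to 6100 in EpiSC minus epiblast E5.75 (5321) and 0 to 7 for the interaction (2). The filter on dim genes kept 15323 genes and removed Elf5. Signals were dim for Cdx2 (above the array median on 0 of 12 arrays), Elf5 and Tfap2a (1 each) and Tfap2c (3), which limits how small a difference can be resolved.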

Other observations

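Of 11 measured genes of surface ectoderm, 0 rose and 3 fell in rsEpiSC E5.75 minus EpiSC, against 3.87% of all genes called (median -0.04, all genes 0.02). Epcam, an epithelial adhesion gene, fell by 4.45 ± 0.53 (adjusted p = 0.000606, limma), Foxi3 fell by 3.96 ± 0.53 (adjusted p = 0.00135) and Grhl2, a regulator of epithelial genes, fell by 1.62 ± 0.31 (adjusted p = 0.0121). The same 3 genes were the 3 that fell in rsEpiSC E5.75 minus epiblast E5.75, with 0 that rose, against 21.5% of all genes called. In EpiSC minus epiblast E5.75 none of the 11 passed, against 24.0%. Epcam read 9.60 and 9.43 in EpiSC, 5.17 and 4.96 in rsEpiSC E5.75 and 8.79 to 9.20 in tissue, while rsEpiSC E6.5 read 8.38 and 6.28, so the 2 rsEpiSC E6.5 arrays stood apart from each other.

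Of 18 measured genes of extraembryonic mesoderm, allantois and posterior streak, 1 rose between tissue stages, against 0.0225% of all genes called. It was Mixl1, which rose by 3.49 ± 0.37 (adjusted p = 0.0128, limma). Against epiblast E6.5, 0 rose and 4 fell in rsEpiSC E6.5, beside 12.5% of all genes called (median -0.21, all genes -0.10). These were led by Eomes, Mixl1 (-3.44 ± 0.37, adjusted p = 0.000266) and Fgf8 (-1.35 ± 0.27, adjusted p = 0.00827). Of 8 germ cell genes, 0 rose and 5 fell in EpiSC minus ESC, against 6.29% of all genes called (median -2.06, all genes 0.0049), led by Dppa3 (-4.13 ± 0.37, adjusted p = 3.93e-05). In rsEpiSC E6.5 minus epiblast E6.5, 0 rose and 2 fell, against 12.5% (median -0.65, all genes -0.10). There Ddx4 fell by 3.13 ± 0.26 (adjusted p = 4.86e-05) and Dppa3 fell by 2.32 ± 0.37 (adjusted p = 0.00287).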
